A study of Rattus norvegicus with 99 samples.

Results

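Matricellular proteins and collagen crosslinkers were followed in whole heart tissue of rats as 9 genes, Postn, Fn1, Tnc, Spp1, Sparc, Cilp, Lox, Loxl1 and Loxl2, out of 17337 genes in the table of the study. They were chosen by symbol, and their NCBI gene identifiers in the table are 361945, 25661, 116640, 25353, 24791, 315761, 24914, 315714 and 290350 in this order. All 9 were present, and all 9 passed the filter on low counts in each fit. The study asked how the right and the left heart respond to pressure overload. It measured polyadenylated RNA of the left ventricle (LV), the interventricular septum (Spt) and the right ventricle (RV) of 33 animals, 1 library per chamber and animal, giving 99 libraries in 21 groups of condition and chamber.

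All animals were male F1 rats of Wistar Kyoto mothers and Lewis fathers, with no genetic alteration named. Aortic banding (AOB) loads the LV and pulmonary artery banding (PAB) loads the RV, in both cases through a clip that was set loosely at surgery and became tight with growth. Hypertrophy groups (H) were sampled at an age of 11 weeks after 7 weeks of treatment and comprised 7 Sham-H, 7 AOB-H and 7 PAB-H animals. Failure groups (F) comprised 4 AOB-F and 3 Sham-LF animals (age 30 weeks, 24 weeks of treatment), and 3 PAB-F and 2 Sham-RF animals (age 27 weeks, 21 weeks of treatment). Shams carried no banding of either vessel. Each group is limited as a model by its few animals and by tissue that mixes all cells of the wall, so that fewer cells of a type and less RNA per cell cannot be told apart. The animals of a group are separate, so p-values of comparisons within a chamber reflect the spread between animals. Comparisons between chambers and interactions with chamber are an exception. Their fit holds 3 libraries of each animal and does not pair them.

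Libraries held from 12057180 to 24197244 counts, with a median of 17391374 counts. Summed levels of 8 ventricular cardiomyocyte markers ranged from 74169 to 156341 CPM (counts scaled to a common library total, with TMM normalization), and those of 3 atrial markers from 4.57 to 1808 CPM, so that the latter differed widely between libraries. The numbers of libraries in the labels fall into 3 runs, named library series 1, 2 and 3 here, which are not stated to be batches. All LV and RV libraries of the failure groups belong to series 2 and all their Spt libraries to series 3. The LV and RV labels of Sham-H replicate 6, PAB-H replicate 2 and AOB-H replicate 1 are in doubt, because in an earlier look at these data genes that separate both ventricles ran the opposite way in these animals. For RV samples, title and source were followed where another label gives the left ventricle.

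Matricellular proteins are secreted into the matrix but act less as scaffold than as signals to cells, and most are scarce in healthy adult myocardium and return upon injury or load. Postn (periostin) marks activated fibroblasts and binds collagen and integrins. Tnc (tenascin C), Spp1 (osteopontin), Sparc (osteonectin) and Cilp (cartilage intermediate layer protein) are matrix glycoproteins of the same functional class, Spp1 being made by macrophages as well as mesenchymal cells. Fn1 (fibronectin) forms the provisional matrix on which collagen is laid down. Lox, Loxl1 and Loxl2 encode lysyl oxidases, secreted copper enzymes that oxidise lysines of collagen and elastin and so start the covalent crosslinks that stiffen scar tissue.

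Postn, Cilp and Loxl1 are the 3 genes on which the results turn, and the 250 bases upstream of their annotated starts (RefSeq, GRCr8) are shown because the levels of these genes varied together across libraries. Capitals mark matches to 1 of 4 motifs searched on both strands, and no match overlaps another in these 3 windows. The TATA box was searched for as the letters TATAAA. The motif of the AP-1 factors was searched for as the letters TGANTCA, and that of the TEAD factors as the letters GGAATG. The CArG box of serum response factor was searched for as well. Of 33469 rat promoters of the same length, 12.9% held the letters TATAAA at any position, 6.34% the AP-1 motif, 12.1% the TEAD motif and 1.5% the CArG box. The Postn window is chr2:140677811-140678060 (plus strand), that of Cilp chr8:74672198-74672447 (plus strand) and that of Loxl1 chr8:67612225-67612474 (minus strand), all written 5′ to 3′ along the gene.
Postn: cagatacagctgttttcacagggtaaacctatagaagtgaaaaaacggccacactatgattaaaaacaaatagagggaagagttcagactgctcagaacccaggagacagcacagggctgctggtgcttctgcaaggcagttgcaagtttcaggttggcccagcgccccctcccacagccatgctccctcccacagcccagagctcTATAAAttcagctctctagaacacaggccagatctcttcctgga
Cilp: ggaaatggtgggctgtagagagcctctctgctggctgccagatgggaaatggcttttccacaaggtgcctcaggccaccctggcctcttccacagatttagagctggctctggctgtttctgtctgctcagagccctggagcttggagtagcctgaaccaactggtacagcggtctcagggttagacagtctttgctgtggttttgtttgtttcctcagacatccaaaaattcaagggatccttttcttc
Loxl1: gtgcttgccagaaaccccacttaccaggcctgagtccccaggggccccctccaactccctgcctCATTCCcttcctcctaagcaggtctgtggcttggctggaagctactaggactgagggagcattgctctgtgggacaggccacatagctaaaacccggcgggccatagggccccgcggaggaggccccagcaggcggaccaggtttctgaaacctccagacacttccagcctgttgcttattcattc
The Postn window held 1 match to the letters TATAAA (-44 to -39 relative to the start). In the Loxl1 window stood 1 TEAD motif on the opposite strand (-186 to -181), and the Cilp window held none of the 4. Entries were found for 6 of the 9 genes. Among the others, Tnc and Spp1 held the letters TATAAA (-208 to -203 and -204 to -199) and Sparc the TEAD motif (-33 to -28). The matches of Tnc and Spp1 lie far upstream of the position in Postn, and no match is shown to be a TATA box. Only these exact letters were searched for, so the letters TATATAA near the start of Tnc did not count. No motif was shared by the 3 genes shown.

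Across all 99 libraries the 9 genes spanned a wide range of levels. Per length, Sparc stood far above the rest with a median of 1121 FPKM (a level scaled to gene length and depth, as deposited), followed by Fn1 at 14.0, Loxl1 at 8.55, Loxl2 at 4.19, Postn at 3.53, Cilp at 2.67, Spp1 at 2.11, Lox at 0.830 and Tnc at 0.112 FPKM. The counts behind these levels set their precision. Sparc was counted 22471 to 66267 times per library, Postn 86 to 2203 times and Cilp 38 to 1104 times, while Lox had 4 to 66 and Tnc 0 to 149 counts, so that small differences of the last pair were not detectable at this depth. When the 21 groups were ordered by median CPM, Postn, Cilp, Loxl1, Fn1, Spp1 and Loxl2 had the LV of AOB-F at the top. Tnc, Sparc and Lox did not. Postn reached a median of 90.3 CPM in this group, followed by the Spt (64.6 CPM) and RV (46.7 CPM) of AOB-F and the RV of PAB-F (34.4 CPM). Libraries of neighbouring groups in this order overlapped in 20 of 20 pairs for all members but Loxl2 (19 of 20).

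**Figure D1:**
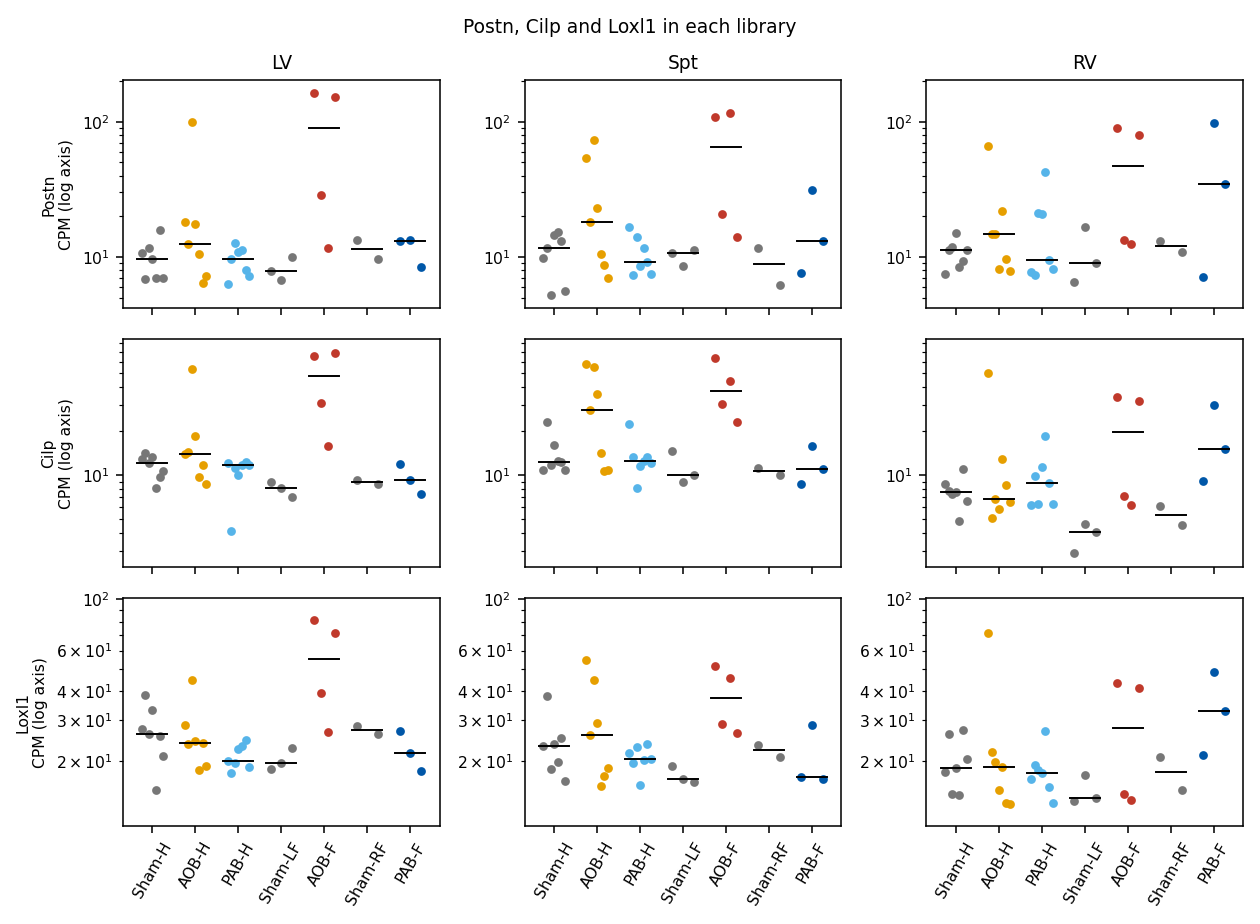
Levels of Postn, Cilp and Loxl1 in each library (CPM, log axis) by condition, with 1 column of panels per chamber; points are libraries and bars are group medians. In the LV, the AOB-F libraries of Postn spread from 11.7 to 162 CPM and lie above the 3 Sham-LF libraries, which end at 10.0 CPM.

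AOB-F was compared with Sham-LF in the LV, the failing chamber, 4 animals against 3. Postn, Cilp and Loxl1 rose, and the other 6 members did not pass an adjusted p of 0.05. Postn measured 162, 28.9, 11.7 and 152 CPM in AOB-F replicates 1 to 4 and 7.95, 6.72 and 10.0 CPM in the 3 shams. Replicates 1 and 4 were high and replicates 2 and 3 lower, but no library overlapped with the shams. The mean was 88.6 ± 79.2 CPM (SD, n = 4) against 8.23 ± 1.67 CPM (SD, n = 3), and the log2 fold change was 3.42 ± 0.80 (SE, edgeR quasi-likelihood test, adjusted p = 0.0352).

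Cilp, a glycoprotein that binds growth factors of the TGF-β family, measured 65.0, 31.1, 15.7 and 68.5 CPM in AOB-F and 8.89, 8.17 and 7.07 CPM in the shams. Its log2 fold change was 2.48 ± 0.51 (SE, edgeR adjusted p = 0.0320). Loxl1, the lysyl oxidase best known for elastic fibres, measured 81.0, 39.2, 26.8 and 71.5 CPM in AOB-F and 18.6, 19.7 and 22.8 CPM in the shams, with a log2 fold change of 1.42 ± 0.31 (SE, edgeR adjusted p = 0.0328). Replicates 1 and 4 were the high libraries for all 3 genes, and both groups were apart in each.

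Spp1 measured 39.6, 9.87, 9.90 and 24.9 CPM in AOB-F and 1.83, 4.02 and 4.83 CPM in the shams. These groups did not overlap either, but the log2 fold change of 2.56 ± 0.89 (SE) had an edgeR adjusted p = 0.162. Fn1 measured 186, 130, 99.9 and 262 CPM against 111, 90.3 and 112 CPM in the shams (log2 fold change 0.70 ± 0.25, SE, edgeR adjusted p = 0.189), and replicate 3 lay within the shams. Tnc, at 2.53, 1.58, 1.24 and 2.75 CPM against 0.167, 0.346 and 1.83 CPM, had 1 sham within the range of AOB-F (log2 fold change 1.35 ± 0.80, SE, edgeR adjusted p = 0.531).

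The collagen-binding Sparc, the most abundant member, measured 2242, 2456, 2067 and 2356 CPM in AOB-F and 1754, 2140 and 1839 CPM in the shams (log2 fold change 0.25 ± 0.15, SE, edgeR adjusted p = 0.532). Of the other lysyl oxidases, Lox measured 1.76, 2.38, 1.86 and 2.89 CPM against 1.61, 1.11 and 1.65 CPM (log2 fold change 0.60 ± 0.46, SE). Loxl2, which acts on collagen IV of basement membranes, measured 18.2, 12.3, 11.8 and 22.8 CPM against 10.2, 6.79 and 12.0 CPM (0.75 ± 0.44, SE, edgeR adjusted p = 0.532). None of these 3 passed, although all 9 members had a positive log2 fold change.

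Counted together, 3 of 9 members were called in the failing LV, all higher, beside 0.837% of the 11703 genes tested, or 0.666% called higher. At an unadjusted p under 0.05 stood 5 of 9 members and 12.7% of all genes. No overlap between both groups, with AOB-F higher, was found for 5 members (Postn, Cilp, Loxl1, Spp1 and Lox) and 5.91% of all genes. The median log2 fold change of the members was 1.35, and that of all genes 0.0138. DESeq2 called the same number of members, 3, and 255 of 11703 genes.

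The calls rested on single animals and on how the spread was estimated. No member passed without AOB-F replicate 1 or 4 or without any of the 3 Sham-LF animals (Postn 2.96 without replicate 1 and 3.03 without replicate 4, edgeR adjusted p = 0.225 and 0.208), nor in a fit of the 7 libraries alone (edgeR adjusted p = 0.344 for each of the 3 genes). Within library series 2, which holds all 7 libraries, the values of Postn, Cilp and Loxl1 were 3.42, 2.48 and 1.42, with edgeR adjusted p = 0.0650, 0.0572 and 0.0672. Without AOB-F replicate 3, Fn1 passed too (0.88, edgeR adjusted p = 0.0317). That fit called 636 of 11701 genes, against 98 of 11703 with all animals.

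**Figure D2:**
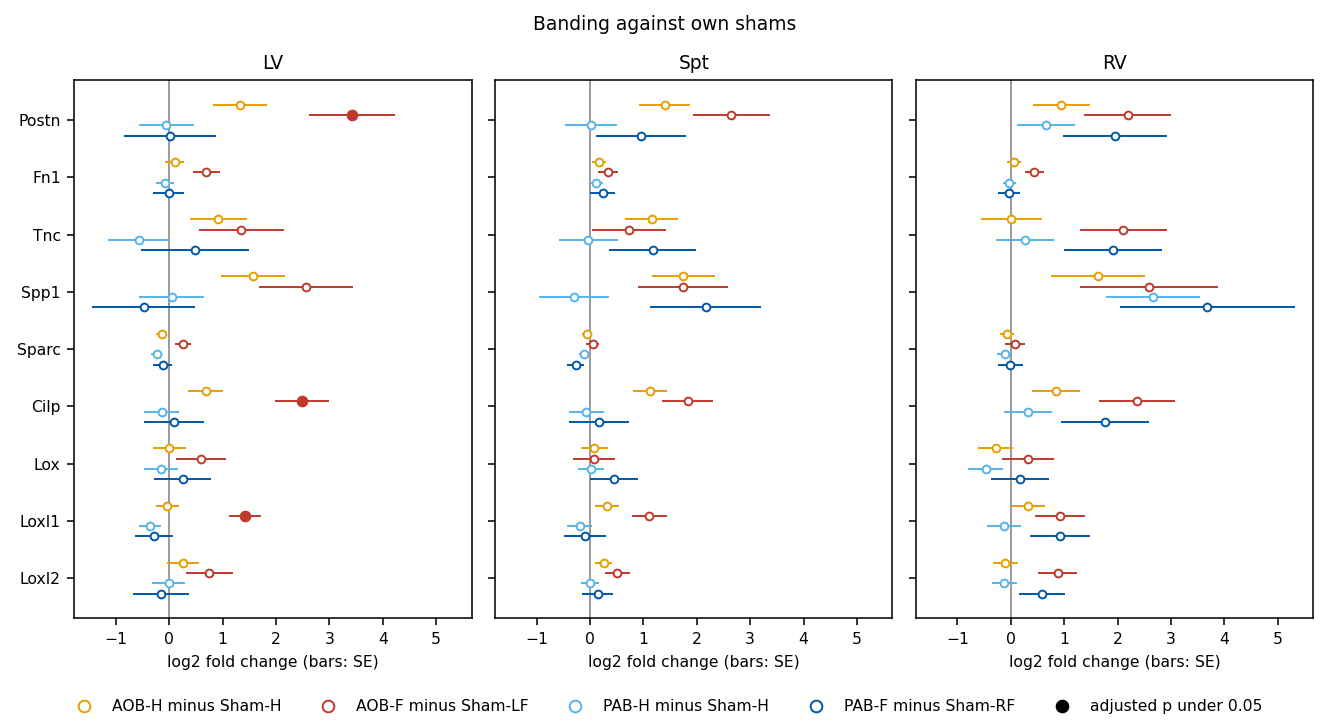
Log2 fold change of each gene upon banding against its own sham group, by chamber; circles are estimates of edgeR, bars 1 SE, filled circles an adjusted p under 0.05. Filled circles appear for Postn (3.42), Cilp (2.48) and Loxl1 (1.42) in the LV of AOB-F and in no other comparison.

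Related genes were described in the same comparison by fixed lists. Among 13 other matricellular genes tested, 2 were called higher, Ctgf (connective tissue growth factor, log2 fold change 2.37, edgeR adjusted p = 0.0320) and Thbs4 (thrombospondin 4, 3.65, edgeR adjusted p = 0.0352), and 6 had an unadjusted p under 0.05, all higher. Among 19 other enzymes that process or crosslink collagen, 1 was called higher, the transglutaminase Tgm2 (0.77, edgeR adjusted p = 0.0409), and 7 stood at an unadjusted p under 0.05. Of 11 receptors of matricellular proteins none was called, with 4 higher and 1 lower at an unadjusted p under 0.05 and the lowest p for the integrin subunit Itgb5 (0.30, edgeR adjusted p = 0.0628). Of 7 fibrillar collagens, the substrates of lysyl oxidases, none was called and 3 had an unadjusted p under 0.05, all higher, with the lowest p for Col1a1 (0.88, edgeR adjusted p = 0.0992). The median log2 fold changes of these 4 lists were 0.47, 0.13, 0.26 and 0.40, beside 0.0138 for all genes.

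Markers of other cell types moved along in part. Of 6 markers of activated fibroblasts 1 was called, Ltbp2 (3.58, edgeR adjusted p = 0.0292). Their summed level was 86.1 to 210 CPM in AOB-F, against 81.3 to 95.9 CPM in Sham-LF. Replicates 1 and 4 of AOB-F held 202 and 210 CPM. Of 11 macrophage markers none was called, 9 were higher at an unadjusted p under 0.05, and their sum was 623 to 1082 CPM against 541 to 643 CPM. General fibroblast markers had sums of 5198 to 6761 CPM against 5504 to 6467 CPM, with none of 6 called and a median log2 fold change of 0.07. Cardiomyocyte markers had sums of 74169 to 92951 CPM against 92738 to 116375 CPM, with 2 of 8 lower at an unadjusted p under 0.05. Sums of 3 atrial markers were 19.7 to 538 CPM against 10.3 to 36.3 CPM, those of 3 mesothelial markers 29.9 to 80.8 CPM against 26.2 to 31.0 CPM, and those of 3 adipocyte markers 0.230 to 12.2 CPM against 0.177 to 0.554 CPM. The part of these cells in the rises of Postn, Cilp and Loxl1 was not tested.

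Within the family of 5 lysyl oxidase genes measured, Loxl1 held the greatest share per length. Its share of their summed FPKM was 61.4% ± 7.51 (SD, n = 4) in the LV of AOB-F and 49.3% ± 4.67 (SD, n = 3) in Sham-LF. In Spt of the same animals it was 61.0% ± 4.01 (SD, n = 4) against 48.3% ± 1.01 (SD, n = 3). The ranges of both groups did not overlap in Spt (56.4% to 65.3% against 47.3% to 49.3%), but did in LV (52.1% to 70.1% against 44.7% to 54.0%). In RV of AOB-F it was 55.9% ± 9.77 (SD, n = 4) against 52.2% ± 6.06 (SD, n = 3), also with overlap. In PAB-F it was 60.8% ± 7.54 (SD, n = 3) against 49.7% ± 0.466 (SD, n = 2) in RV, without overlap, but 48.9% ± 7.20 (SD, n = 3) against 54.8% ± 1.48 (SD, n = 2) in Spt and 48.5% ± 3.59 (SD, n = 3) against 52.2% ± 1.26 (SD, n = 2) in LV. These shares were not tested.

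In Spt of AOB-F animals, the same 3 genes were higher than in Sham-LF in every library but none passed by edgeR, beside 0.232% of 11624 genes. Postn measured 108, 21.0, 116 and 14.2 CPM in AOB-F replicates 1 to 4 and 10.7, 8.53 and 11.2 CPM in the shams (log2 fold change 2.65 ± 0.72, SE, edgeR adjusted p = 0.105). Cilp measured 63.9, 30.9, 44.5 and 23.1 CPM against 14.6, 8.89 and 10.1 CPM (1.83 ± 0.48, SE, edgeR adjusted p = 0.0903). Loxl1 measured 51.7, 29.0, 45.7 and 26.4 CPM against 19.1, 16.8 and 16.3 CPM (1.11 ± 0.33, SE, edgeR adjusted p = 0.131). DESeq2 called all 3 (Postn and Cilp with adjusted p = 0.0165, Loxl1 with adjusted p = 0.0423), where it called 145 genes and edgeR 27. Without AOB-F replicate 4, edgeR called Postn (3.00, adjusted p = 0.0205) and Cilp (2.04, adjusted p = 0.0241), among 234 of 11616 genes. Without replicate 2 it called Postn (2.94, adjusted p = 0.0467), among 88 of 11622 genes.

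At an unadjusted p under 0.05 stood 5 of 9 members in this septum, all higher, and 12.2% of all genes, and 3 members and 5.26% of all genes were higher with no overlap. Spp1 (1.74, edgeR adjusted p = 0.404) and Loxl2 (0.51, edgeR adjusted p = 0.376) were the further members with such a p. The high libraries were replicates 1 and 3 in Spt, whereas they were 1 and 4 in LV and RV. Over all genes, the deviations of AOB-F replicates 3 and 4 from their group mean were inversely related between LV and Spt (Pearson r across genes of -0.42 and -0.32) and between Spt and RV (-0.42 and -0.51), while those of replicates 1 and 2 were positive throughout. For replicates 1 and 2 of AOB-F, the sample sheet of the study has the septum columns the other way round. These doubts concern which animal a septum belonged to. Whether a septum could belong to another group was not tested. Both low Spt libraries held 165 and 237 CPM of the atrial markers, and both high ones 16.6 CPM each.

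In RV of AOB-F animals, which the aortic clip does not load directly, no member and 0% of 11734 genes were called by edgeR, and DESeq2 called no member either. Postn measured 89.4, 13.3, 12.6 and 80.1 CPM against 6.57, 16.7 and 9.02 CPM in Sham-LF, with replicates 1 and 4 high and replicates 2 and 3 within the shams (log2 fold change 2.19 ± 0.82, SE, edgeR adjusted p = 0.347). Cilp measured 34.0, 7.13, 6.17 and 32.3 CPM against 2.90, 4.60 and 4.05 CPM, again split between these pairs but above every sham (2.37 ± 0.71, SE, edgeR adjusted p = 0.328). Spp1 measured 27.9, 1.77, 3.45 and 30.1 CPM against 0.535, 4.68 and 2.68 CPM (2.58 ± 1.30, SE, edgeR adjusted p = 0.390). Tnc changed by 2.11 ± 0.81 and Loxl1 by 0.92 ± 0.47 (SE, edgeR adjusted p = 0.347 and 0.396). At an unadjusted p under 0.05 were 5 of 9 members, all higher, and 12.9% of all genes. Cilp and Fn1 were higher with no overlap, as were 5.33% of all genes. Whether the response of AOB-F differed between LV and RV was tested as an interaction, in which 0% of 11924 genes and no member passed (Postn 1.23 ± 1.07, edgeR adjusted p = 0.926, and none of the members at an unadjusted p under 0.05).

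PAB-F was compared with Sham-RF in RV, the failing chamber upon pulmonary artery banding, 3 animals against 2. No member and 0% of genes passed by edgeR, and no member by DESeq2. Spp1 measured 2.03, 60.2 and 15.2 CPM in PAB-F replicates 1 to 3 and 1.32 and 2.63 CPM in the shams (log2 fold change 3.68 ± 1.64, SE, edgeR adjusted p = 0.570). Postn measured 7.06, 98.6 and 34.4 CPM against 13.2 and 10.9 CPM (1.95 ± 0.97, SE, edgeR adjusted p = 0.599). Tnc measured 0.489, 6.40 and 1.57 CPM against 0.515 and 0.958 CPM (1.91 ± 0.92, SE, edgeR adjusted p = 0.590). In all 3 genes replicate 2 was highest and replicate 3 intermediate, and replicate 1 lay between the shams for Spp1 and below both for Postn and Tnc.

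Cilp (9.02, 30.3 and 15.0 CPM against 6.10 and 4.55 CPM, log2 fold change 1.76 ± 0.82, SE) and Loxl1 (21.2, 48.7 and 32.9 CPM against 21.0 and 15.0 CPM, 0.92 ± 0.56, SE) kept the same order of animals, without overlap with the shams. Loxl2 did not overlap either (7.06, 11.0 and 7.25 CPM against 6.32 and 4.85 CPM, log2 fold change 0.59). With groups this small, 16.9% of all genes were higher with no overlap. At an unadjusted p under 0.05 were 3 of 9 members (Spp1, Cilp and Tnc), all higher, and 8.37% of genes. Fn1 and Sparc had log2 fold changes of -0.04 ± 0.21 and -0.01 ± 0.23 (SE), and none of 7 fibrillar collagens was higher at an unadjusted p under 0.05. Without PAB-F replicate 2, the values were 2.12 for Spp1, 0.80 for Postn, 0.50 for Tnc, 1.19 for Cilp and 0.60 for Loxl1. Macrophage markers in RV summed to 344, 725 and 681 CPM in PAB-F replicates 1 to 3 against 454 and 455 CPM, those of activated fibroblasts to 78.6, 172 and 108 CPM against 72.1 and 104 CPM, and atrial markers to 42.1, 16.3 and 1776 CPM. The part of these cells in the levels of the members was not tested.

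In the chambers that the pulmonary clip does not load directly, no member passed by edgeR or DESeq2, and 0% of genes passed by edgeR in the fit of all 33 libraries. In a fit of the 5 Spt libraries alone, 792 of 11154 genes were called, 535 higher and 257 lower, with Sparc (-0.27) among the latter. In LV, no member and 1.04% of genes had an unadjusted p under 0.05, and Postn stood at 13.1, 13.3 and 8.44 CPM against 13.3 and 9.68 CPM. In Spt, 1 of 9 members (Spp1, log2 fold change 2.17 ± 1.05, SE, edgeR adjusted p = 0.816) and 4.14% of genes had such a p, with 28.5 CPM of Spp1 in replicate 2 and 3.28 and 3.18 CPM in the others, against 2.01 CPM in Sham-RF replicate 2 and a level between those of the latter pair in replicate 1. Replicate 2 of PAB-F was thus the high animal in Spt as in RV. In the interaction of PAB-F with chamber, RV minus LV, Spp1 differed by 4.16 ± 1.76 (SE, edgeR adjusted p = 0.988), the single member at an unadjusted p under 0.05, and 0% of genes passed. Without PAB-F replicate 2 the difference was 2.41 ± 1.83, and it no longer had such a p there or without either of the Sham-RF animals (3.79 and 4.73).

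**Figure D3:**
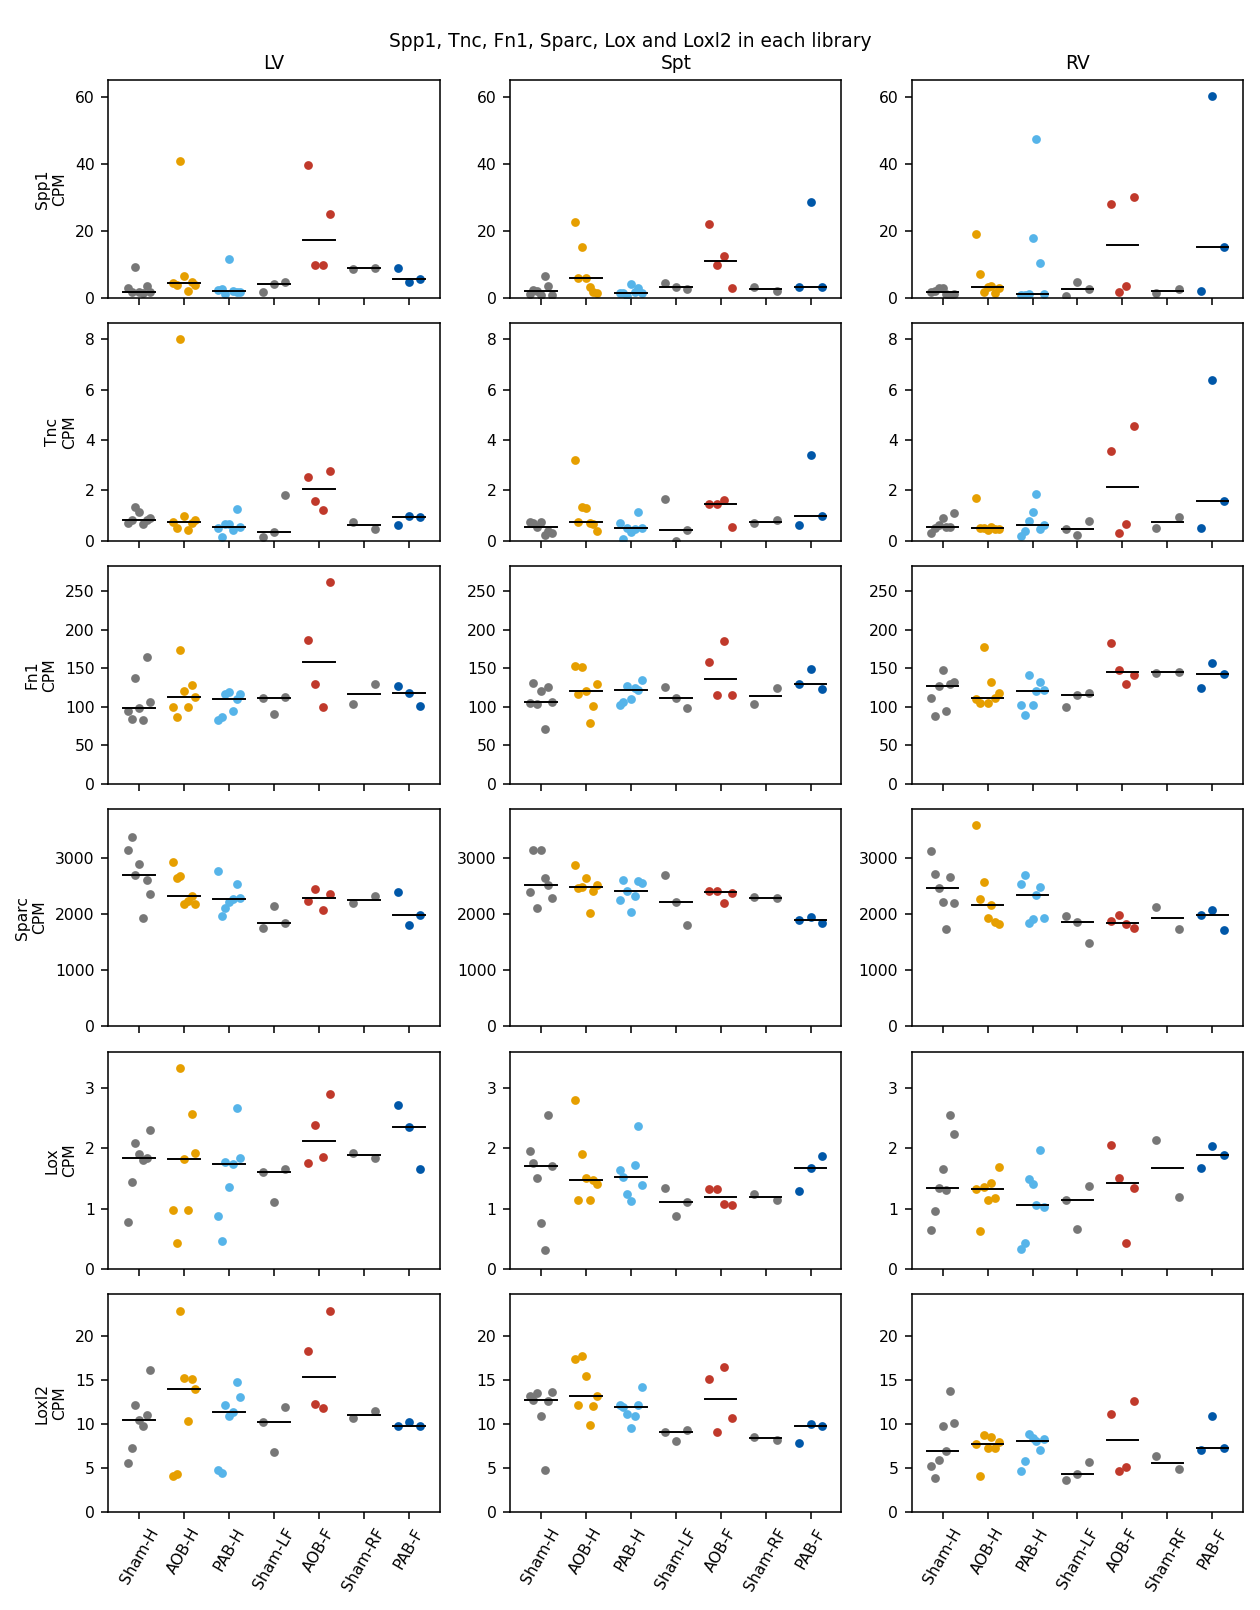
Levels of Spp1, Tnc, Fn1, Sparc, Lox and Loxl2 in each library (CPM, linear axis from 0) by condition and chamber; points are libraries and bars are group medians. Single libraries carry the upper range of Spp1, as with 60.2 CPM in RV of PAB-F and 41.0 CPM in LV of AOB-H, while Sparc stays between 1489 and 3593 CPM.

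At the hypertrophy stage, no member and 0% of genes were called upon AOB or PAB in any chamber by edgeR, with 7 animals against 7, and DESeq2 called no member. Upon AOB in LV, Postn ranged from 6.37 to 100 CPM with a median of 12.5 CPM, against 6.93 to 15.8 CPM with a median of 9.71 CPM in Sham-H. The groups overlapped, with 3 of 7 AOB-H libraries above all shams for Postn and likewise for Cilp. AOB-H replicate 3 stood far above the rest for Postn, as it did for Spp1 (41.0 CPM, the others up to 6.50), Cilp (53.6 CPM, the others up to 18.5), Tnc (8.00 CPM, the others up to 0.965) and Loxl1 (44.7 CPM, the others up to 28.7). The log2 fold changes of Postn (1.33 ± 0.51, SE), Spp1 (1.57 ± 0.59) and Cilp (0.69 ± 0.33) had an edgeR adjusted p = 0.956 and, with 4.54% of all genes, an unadjusted p under 0.05. Without replicate 3 they were 0.29, 0.42 and 0.15, and Tnc went from 0.92 to -0.39. Within library series 1, 2 and 3, Postn changed by 0.82, 2.19 and -0.74. These series hold 6, 9 and 6 LV libraries over the 3 hypertrophy conditions. Series 1 includes AOB-H replicate 1 and series 3 Sham-H replicate 6, whose LV and RV labels are in doubt.

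In Spt of AOB-H, 4 of 9 members had an unadjusted p under 0.05, all higher, beside 15.9% of all genes. Postn ranged from 7.03 to 73.0 CPM with a median of 18.1 CPM, against 5.22 to 15.3 CPM with a median of 11.8 CPM in Sham-H (log2 fold change 1.40 ± 0.48, SE, edgeR adjusted p = 0.232). Cilp ranged from 10.6 to 57.5 CPM with a median of 27.9 CPM, against 10.9 to 23.2 CPM with a median of 12.3 CPM (1.12 ± 0.32, SE, edgeR adjusted p = 0.192). Spp1 changed by 1.75 ± 0.60 and Tnc by 1.15 ± 0.49 (SE, edgeR adjusted p = 0.232 and 0.269). Replicates 1 and 3 were the high septa, with 54.3 and 73.0 CPM of Postn and 57.5 and 55.3 CPM of Cilp, and the lower libraries overlapped with the shams. Without AOB-H replicate 6, the lowest of its group for Cilp, Cilp passed (1.27, edgeR adjusted p = 0.0459). That fit called 92 of 11624 genes, against 0 with all animals. Within library series 2 and 3, Postn changed by 1.37 and 1.42 and Cilp by 1.61 and 0.94. In this septum 8 of 11 macrophage markers were higher and 5 of 8 cardiomyocyte markers lower at an unadjusted p under 0.05, none of them called.

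In RV of AOB-H, no member and 0.937% of genes had an unadjusted p under 0.05. The library labelled RV of replicate 1 held 65.9 CPM of Postn, 50.4 CPM of Cilp, 71.7 CPM of Loxl1 and 19.1 CPM of Spp1, above all others of its group, while its library labelled LV held 18.1, 13.8, 28.7 and 4.50 CPM. The labels of this animal are among those in doubt. Without it the log2 fold changes were 0.27 for Postn, -0.02 for Cilp and -0.23 for Loxl1, instead of 0.95, 0.84 and 0.32.

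Upon PAB at the hypertrophy stage, the RV was the chamber loaded, and Spp1 was the single member with an unadjusted p under 0.05 there, beside 1.26% of genes. It ranged from 0.865 to 47.5 CPM with a median of 1.26 CPM, against 0.650 to 3.08 CPM with a median of 1.76 CPM in Sham-H (log2 fold change 2.66 ± 0.89, SE, edgeR adjusted p = 1.00). Replicates 4, 5 and 6 stood above all shams and the other 4 within them. The value was 1.57 without replicate 5, and it was -0.99 within library series 1 and 2.65 within series 3. Series 1 includes PAB-H replicate 2 and series 3 Sham-H replicate 6, whose LV and RV labels are in doubt. Postn was also high in replicate 5 (42.4 CPM, the others up to 21.2). In LV, Sparc had a log2 fold change of -0.24 ± 0.10 (SE, edgeR adjusted p = 0.957), the single member with an unadjusted p under 0.05 beside 4.72% of genes. In Spt none of the members and 4.44% of genes had such a p.

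An interaction term asked whether the response grew from hypertrophy to failure, with every stage set against shams of its age. For AOB in LV no member and 0% of genes passed by edgeR, none of the members by DESeq2, and 4 members had an unadjusted p under 0.05, all with a larger change in failure. Loxl1 differed by 1.45 ± 0.37 and Cilp by 1.79 ± 0.58 (SE, edgeR adjusted p = 0.462 for both), Postn by 2.09 ± 0.90 (edgeR adjusted p = 0.584) and Sparc by 0.40 ± 0.18 (SE). Without AOB-H replicate 3, Cilp passed (2.33, edgeR adjusted p = 0.0383). In that fit 10 of 11684 genes passed. With all animals, the calls of Postn, Cilp and Loxl1 in failure and their absence in hypertrophy are thus not shown to differ. For PAB in RV no member and 0% of genes passed, and no member had an unadjusted p under 0.05 by edgeR or was called by DESeq2 (Spp1 1.02 ± 1.74, SE).

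Older shams (Sham-LF and Sham-RF, 27 to 30 weeks) were compared with young ones (Sham-H, 11 weeks), which addresses growth and age without banding. No member was called by edgeR or DESeq2, beside 0.0171% of all genes for LV, 0.103% for Spt and 0.0852% for RV. Sparc in older LV measured 1754, 2140 and 1839 CPM in Sham-LF and 2198 and 2318 CPM in Sham-RF, against 1925 to 3375 CPM with a median of 2706 CPM in Sham-H, so that the groups overlapped (log2 fold change -0.39 ± 0.12, SE, edgeR adjusted p = 0.336). In RV it changed by -0.40 ± 0.15 and in Spt by -0.20 ± 0.10 (SE, edgeR adjusted p = 0.332 and 0.308). All older libraries of LV and RV belong to series 2, and within that series the values of Sparc were -0.28 and -0.21. Loxl2 changed by -0.45 ± 0.19 in Spt and -0.65 ± 0.28 in RV (SE, edgeR adjusted p = 0.222 and 0.397). In Spt it passed without Sham-H replicate 5 (-0.57, edgeR adjusted p = 0.0278), the low library of its group (4.79 CPM, the others 10.9 to 13.6). That fit called 573 of 11622 genes, against 12 of 11624 with all animals. Members with an unadjusted p under 0.05 numbered 1 in LV, 1 in Spt and 2 in RV, all lower, beside 6.99%, 16.8% and 11% of genes. Of the fibrillar collagens, Col3a1 fell in Spt and RV (-0.99 and -0.80, edgeR adjusted p = 0.000807 and 0.0437) and Col1a1 in Spt (-0.83, edgeR adjusted p = 0.0464).

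In young shams, the levels of the members were compared between chambers in 1 fit of all libraries. No member passed by edgeR or DESeq2, beside 0% of genes for RV minus LV, 0.0923% for Spt minus LV and 0.772% for Spt minus RV. This fit did not pair the libraries of an animal. With the animal as a block, 0, 28 and 136 of 11924 genes were called, in the same order. Cilp ranged from 10.9 to 23.2 CPM in Spt and from 4.85 to 11.0 CPM in RV (log2 difference 0.86 ± 0.39, SE, edgeR adjusted p = 0.495), with LV in between (8.09 to 14.1 CPM). Loxl2 differed by 0.55 ± 0.25 in the same direction (SE, edgeR adjusted p = 0.502). The other members had no unadjusted p under 0.05 between chambers. Spt of Sham-H has no library of series 1, while RV has 2, and these were the lowest for Loxl2 (5.21 and 3.81 CPM). In series 3 alone, Loxl2 of both chambers overlapped, at 10.9 to 13.6 CPM in Spt and 10.1 and 13.7 CPM in RV, so that chamber and series are partly mixed in this difference. The comparison also rests on the doubted labels of Sham-H replicate 6. Without the 3 doubted animals, 149 of 11915 genes were called for RV minus LV, 29 for Spt minus LV and 237 for Spt minus RV, but still no member (Spt minus RV 0.99 for Cilp and 0.72 for Loxl2, edgeR adjusted p = 0.175 and 0.129).

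Lox and Loxl2 moved with the library series in young animals. In LV, Lox ranged from 0.430 to 1.44 CPM in series 1, from 0.972 to 3.33 CPM in series 2 and from 1.83 to 2.67 CPM in series 3, and the medians of Loxl2 were 4.60, 11.4 and 14.3 CPM. Series 1 was lowest for both, and for Loxl2 its 6 libraries (4.08 to 7.22 CPM) did not overlap with those of series 2 (9.79 to 22.8 CPM). In RV the medians were 0.636, 1.36 and 1.84 CPM for Lox and 4.91, 8.45 and 8.12 CPM for Loxl2. Postn and Cilp had LV medians of 10.2, 11.3 and 7.24 CPM and of 13.3, 11.7 and 11.2 CPM. Each series holds the 3 hypertrophy conditions in equal numbers in LV and RV, so that these differences did not fall between conditions.

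**Figure D4:**
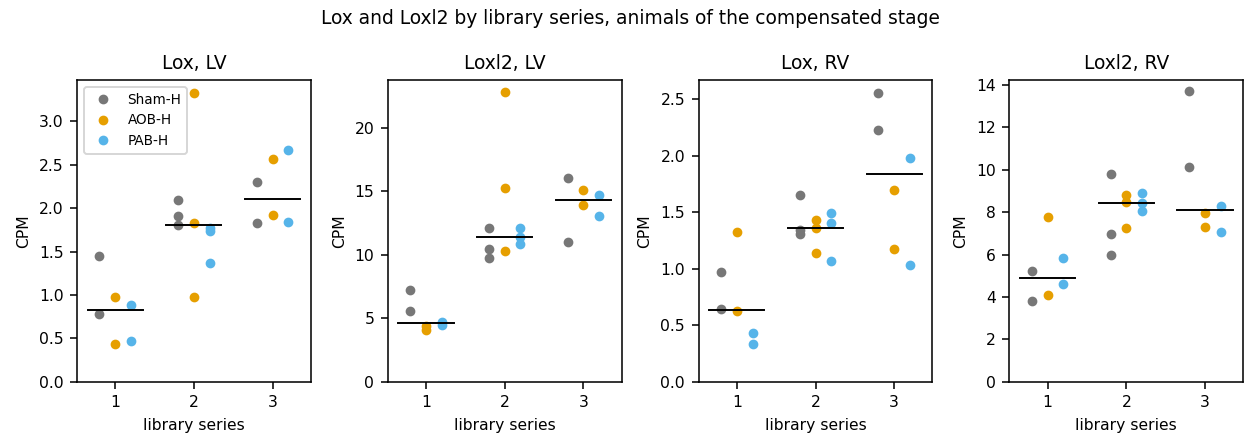
Lox and Loxl2 (CPM) in LV and RV of Sham-H, AOB-H and PAB-H animals by library series; points are libraries and bars are medians over the 3 conditions. In LV, Loxl2 goes from a median of 4.60 CPM in series 1 to 11.4 and 14.3 CPM in series 2 and 3.

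Across the 99 libraries, after centring within each chamber, log2 CPM of Postn, Cilp and Loxl1 varied together, with Pearson r = 0.86 between Postn and Cilp, 0.84 between Postn and Loxl1 and 0.88 between Cilp and Loxl1. Postn and Spp1 had r = 0.79. Lox and Loxl2 formed a second pair (r = 0.73), whose libraries also share the series differences, and Lox was little related to Postn (r = 0.23). Sparc stood apart, with r from -0.11 to 0.39 against the other members. These are descriptions over libraries of which each animal gave 3 and which share conditions, series and depth.

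**Figure D5:**
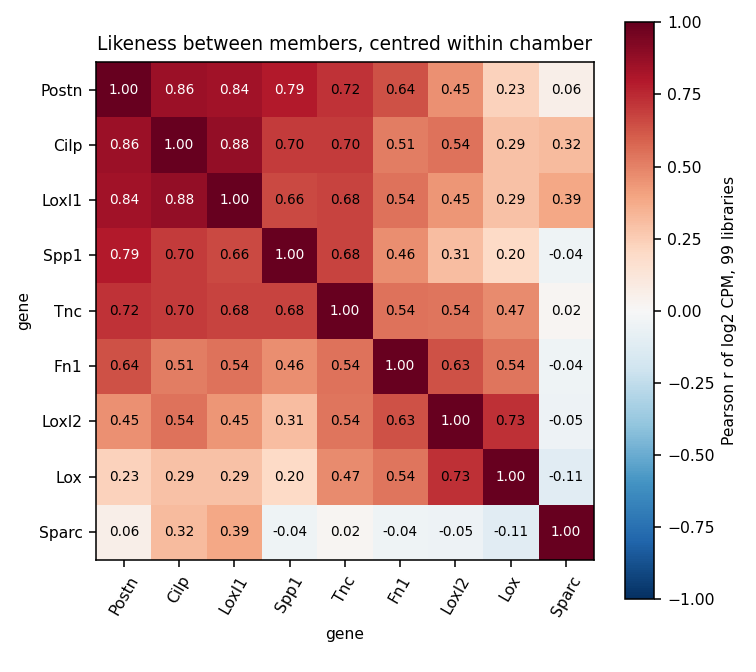
Pearson r of log2 CPM between the 9 genes over 99 libraries centred within chamber, with the value in each cell and colour from -1 to 1. Postn, Cilp and Loxl1 form 1 block (0.84 to 0.88), Lox and Loxl2 a second (0.73), and Sparc stays at or below 0.39.

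The genes most like each member by the same measure were named as a description over 99 libraries. Ltbp2 was closest to Postn (r = 0.93) and to Cilp (r = 0.88), and Postn was followed by Fcrl2 (0.91) and Ncam1 (0.89), Cilp by Col8a1 and Serpine2 (0.88 each). Loxl1 was closest to Islr (0.88), to Cilp itself and to Pea15 (0.87). Spp1 was closest to the macrophage elastase Mmp12 (0.83), to the macrophage marker Gpnmb (0.83) and to Tgfb2 (0.80). Tnc was closest to Ncam1 and Col8a1 (0.74 each) and Mpeg1 (0.73), and Fn1 to Myof (0.89), the proteoglycan Vcan (0.78) and Cd55 (0.77). Sparc was closest to C1qtnf6 (0.83), Ifi27 (0.80) and Lgals9 (0.79), Lox to the laminin chain Lamc1, to Adamts5 (0.80 each) and to Fam129a (0.79), and Loxl2 to Dpysl3 (0.89), App and Cybb (0.87 each).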

How the data were processed

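Whole heart libraries were made by the authors from polyadenylated RNA, and reads were trimmed with Trim Galore, mapped with STAR to Rnor6.0 and counted per gene with featureCounts. The raw counts deposited by the authors are whole reads per gene without scaling, and they alone entered the tests. The deposited FPKM values, normalized by the authors with DESeq2 size factors and gene length, were used for levels between genes. Normalized reads were not used. Whether counting used strand is not given in the sources used here, and no genome of that build was at hand, so no gene coordinates are given on it. No pair of libraries of a group agreed within sampling noise (chi-square per degree of freedom 3.56 or more).

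Samples were grouped by their labels. One description of an RV sample of Sham-LF replicate 1 names the other sham group, and its title was followed. The quasi-likelihood test of edgeR 4.0.16 (R 4.3.3, TMM, filterByExpr) was run per chamber on 33 libraries with 7 conditions (11703 genes in LV, 11624 in Spt, 11734 in RV) and, for chambers and their interactions, on 99 libraries in 21 groups (11924 genes). A gene is called at a Benjamini-Hochberg adjusted p under 0.05 over all genes. On simulated data with known changes the procedure was checked. The simulation gave every gene the same relative spread between libraries, so it did not cover spreads as wide as that of Postn in AOB-F. Alternatives were DESeq2 1.42.0, its size factors in edgeR, no filter, the compared groups alone, library series as covariate, 1 library series alone, the replicate number (between chambers, the animal) as a block, and fits without each animal or without the 3 animals of doubted labels. Fits of library series other than the main one and of all 99 libraries were added after seeing the data. Correlations used log2 CPM with a prior count of 2.

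Named genes are the 9 members, the called genes of each context list (at most 4) or otherwise its gene with the lowest p, and the 3 genes with the highest r for each member. The lists were fibrillar collagens, other matricellular proteins, other collagen processing enzymes, receptors, and markers of activated fibroblasts, fibroblasts, macrophages, cardiomyocytes, endothelium, smooth muscle, mesothelium, atria, valves and adipocytes. In LV of AOB-F, none of 6 endothelial, 4 smooth muscle and 2 valve markers tested had an unadjusted p under 0.05. Members and lists were chosen with earlier results of these data known. Same-numbered LV, Spt and RV replicates of a condition are from the same animal per the labels, and their deviations had a median r of 0.42 between LV and RV, 0.16 between LV and Spt and 0.17 between Spt and RV.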

Additional observations from a re-analysis of the deposited data

Results flagged for a closer look

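Of 108 groups of 4 to 7 libraries examined for the 9 genes, 26 (24.1%) held a library far from the others by Dixon's ratio. The limit used marks about 1 in 20 only for normally distributed values, whereas the ratio was taken on CPM without logs. No excess over chance is thus shown. The genes are also related, so that their groups are not independent.

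AOB-H replicate 3 stood far above its group in LV for Postn (100 CPM), Tnc (8 CPM), Spp1 (41 CPM), Cilp (53.6 CPM) and Loxl1 (44.7 CPM). In RV of AOB-H, replicate 3 was high for Fn1 (177 CPM). AOB-H replicate 1 stood above its group in RV for Postn (65.9 CPM), Tnc (1.7 CPM), Spp1 (19.1 CPM), Sparc (3590 CPM), Cilp (50.4 CPM) and Loxl1 (71.7 CPM), and in Spt for Tnc (3.2 CPM). The LV and RV labels of this animal are in doubt. PAB-H replicate 5 stood above its group in RV for Postn (42.4 CPM), Spp1 (47.5 CPM), Cilp (18.5 CPM) and Loxl1 (27.1 CPM).

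The other far libraries concerned 1 or 2 genes each. Sham-H replicate 2 was high in Spt for Cilp (23.2 CPM) and Loxl1 (38.4 CPM), Sham-H replicate 3 in LV for Spp1 (9.12 CPM), PAB-H replicate 4 in LV for Spp1 (11.6 CPM) and PAB-H replicate 1 in Spt for Cilp (22.5 CPM). Low libraries were AOB-F replicate 4 in Spt for Tnc (0.527 CPM), PAB-H replicate 2 in LV for Cilp (4.14 CPM), Sham-H replicate 5 in Spt for Loxl2 (4.79 CPM) and AOB-H replicate 2 in RV for Loxl2 (4.08 CPM).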

How the results depend on the processing

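Over the members' log2 fold changes that had an unadjusted p under 0.05 in their comparison, 712 alternative values kept direction and side of the threshold, 24 were no longer called, 13 became called and 2 reversed. The number of members called in LV of AOB-F, 3, was 0 with the compared groups alone, within library series 2 and with the replicate block. It was 0 to 4 when 1 animal was left out, in fits that called 0 to 636 genes. Postn, Cilp and Loxl1 were each kept in 8 of 16 alternatives, with log2 fold changes of 2.96 to 3.78, 2.21 to 2.76 and 1.17 to 1.64 and adjusted p of 0.00119 to 0.344, 0.000174 to 0.344 and 0.00121 to 0.344. In Spt of AOB-F, 0 members were called by edgeR and 3 by DESeq2. With the replicate block 1 was called, and with 1 animal left out 0 to 2. The calls over all genes were, in this order, 27, 145, 133 and 0 to 234. The count went from 0 to 1 (Sparc) with the replicate block in older against young shams of LV (-0.50, adjusted p 0.0227) and RV (-0.60, adjusted p 0.0291), fits in which the block moved the calls over all genes from 2 to 961 in LV and from 10 to 59 in RV. It went from 0 to 1 (Sparc, -0.27) in Spt of PAB-F with the compared groups alone, where 792 of 11154 genes were called instead of 0. It was 0 to 1 with 1 animal left out in Spt of AOB-H, Spt of older shams and the stage interaction of AOB. The fits of this kind named in the results called 92, 573 and 10 genes, in this order. Reversed were Postn in LV of AOB-H within series 3 (-0.74) and Spp1 in RV of PAB-H within series 1 (-0.99). Both fits include an animal of doubted labels, Sham-H replicate 6 in the former and PAB-H replicate 2 in the latter. Between chambers of Sham-H, leaving out the 3 doubted animals moved the calls over all genes from 0 to 149 (RV minus LV), 11 to 29 (Spt minus LV) and 92 to 237 (Spt minus RV), with no member called. The cause was not tested. Replicate numbers were not treated as pairs of animals of different conditions in the main fits. In each comparison of 3 or more pairs at least 1 pair had r at or under 0.1 (-0.02 to 0.09 in LV of AOB-F). Other pairs were higher, up to 0.79 in RV of AOB-H. In LV and RV of the hypertrophy groups the replicate numbers run with the library series, so these r cannot decide on pairing. Tnc and Lox are limited by depth.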
